A study of Homo sapiens with 12 samples.

Results

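BANCR and DANCR are long non-coding RNAs (lncRNAs), and they were chosen by name as the 2 rows of the deposited expression table whose levels went in opposite directions when A375 cells received interferon gamma (IFNγ). They are 2 of the 4918 genes analysed here and 2 of the 280 among these that are annotated as lncRNAs. Only symbols that sort alphabetically between A1BG and FAM46B were analysed here, so every rank and count below is within this stretch of the alphabet and not over all genes, all lncRNAs or all host genes of small nucleolar RNAs. A375 is an established human melanoma cell line that carries an activated form of the kinase BRAF. RNA-seq covered 3 samples in each of 4 groups: untreated control cells, cells given SB-3CT (a small-molecule inhibitor of the gelatinases MMP2 and MMP9), cells given IFNγ, and cells given SB-3CT together with IFNγ, each for 24 h. The doses for these cultures were not given in the sources used here, the controls are labelled as treated with none although the series title speaks of vehicle control cells, and a single cell line stands for melanoma. Nothing in the labels says that the 3 samples of a group came from separate cultures, so p-values measure only the spread between these samples.

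BANCR, the BRAF-activated non-coding RNA, was named for its dependence on oncogenic BRAF in melanoma cells and has been linked to their migration. DANCR, the differentiation antagonizing non-coding RNA (also ANCR or SNHG13), is a spliced host transcript of small RNAs that holds progenitor cells in an undifferentiated state and has been described as binding the histone methyltransferase EZH2 and as acting on β-catenin. IFNγ signals through its receptor and turns on antigen presentation genes, chemokines and PD-L1.

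In hg19 (GRCh37, GENCODE release 44) BANCR lies on the minus strand of chromosome 9 at chr9:71911594-71926027, with 5 annotated isoforms of 558 to 780 bases. No annotated gene overlaps it, and the nearest, ENTREP1 (FAM189A2 in the table), starts 13456 bases away on the opposite strand. The exon stretch below is carried by every BANCR isoform, so any BANCR isoform behind the FPKM values holds it. It lies at chr9:71921770-71921904 (135 bases) and is written 5′ to 3′ on the minus strand.
BANCR shared exon stretch: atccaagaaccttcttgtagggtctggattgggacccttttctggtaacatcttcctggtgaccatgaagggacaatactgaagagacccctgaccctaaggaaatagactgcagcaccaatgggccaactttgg

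DANCR lies on the plus strand of chromosome 4 at chr4:53578492-53589790 in hg19, with 14 annotated isoforms of 272 to 6065 bases. Its body holds a microRNA gene and a small nucleolar RNA on the same strand, SNORA26, at chr4:53579416-53579537. It also overlaps LINC01618 on the same strand and 3 features on the opposite strand: an unnamed lncRNA, a processed pseudogene and the end of ERVMER34-1. These overlaps bear on what the values count, because the strand setting of the libraries is not given in the sources used here. The mature microRNA (RefSeq, GRCh38.p14, bases 2 to 8 in capitals as the seed) and the small nucleolar RNA are shown because they lie within DANCR on its strand. Both also lie within the span of LINC01618, and the FPKM of DANCR does not give their levels.
hsa-miR-4449: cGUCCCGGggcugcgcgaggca
SNORA26: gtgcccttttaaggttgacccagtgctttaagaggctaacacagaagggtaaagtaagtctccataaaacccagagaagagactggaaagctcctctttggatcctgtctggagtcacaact

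The DANCR promoter is shown because DANCR was among the genes furthest below control with IFNγ. It is the RefSeq window from 250 bases before to 50 bases after the annotated start, chr4:52712144-52712443 in GRCh38.p14 on the plus strand. Capitals mark ATTGG or its complement CCAAT, the core of the CCAAT box that the factor NF-Y binds.
DANCR promoter: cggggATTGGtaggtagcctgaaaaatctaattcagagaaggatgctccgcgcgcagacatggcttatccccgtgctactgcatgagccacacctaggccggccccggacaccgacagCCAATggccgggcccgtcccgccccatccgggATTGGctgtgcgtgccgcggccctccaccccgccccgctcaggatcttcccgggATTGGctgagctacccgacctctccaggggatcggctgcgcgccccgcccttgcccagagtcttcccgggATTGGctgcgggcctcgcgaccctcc
The pentamer occurred 5 times in this window. At least 1 copy was present in 35.4% of the 27305 promoters of the same length, and at least 5 copies were present in 0.385% of them. GAAANNGAA, the core letters of the interferon-stimulated response element, searched on both strands, occurred 0 times, against 8.37% of all promoters with a match. The GC content of the window was 67.7%, against a median of 58.0% over all promoters. These matches describe letters only and no binding was measured.

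For each gene 1 annotated isoform, the one nearest to the median length, was also searched against the hg19 genome in windows of 150 bases, the length of a read. None of the 19 BANCR windows and none of the 34 DANCR windows had another place in the genome at which 95% or more of the bases were identical. The closest place elsewhere shared 135 of 150 bases for BANCR and 139 of 150 for DANCR.

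The values are FPKM, that is fragments counted per kilobase of transcript and set relative to all mapped fragments of a sample, which the authors deposited as log2(FPKM + 1), and all changes and tests below are on that log2 scale. The 4 measured melanoma markers at a mean of at least 1 FPKM (CSPG4, EDNRB, AXL and CDH2) were present in every group, with DCT at no more than 0.278 FPKM, and the 5 melanoma markers summed to between 98.1 and 118 FPKM per sample in 3 of the groups and to between 80.8 and 85.1 FPKM with both agents. Summed levels of the measured markers of keratinocytes, fibroblasts, T and B cells and endothelium were at most 1.03 FPKM, and of the myeloid markers only CD68, also made by many cell lines, was above 1 FPKM. All 5 measured IFNγ response genes (CXCL10, CD274, CIITA, CD74 and B2M) were higher in both groups given IFNγ than in the matching group without it, as labelled. Sequencing depth relative to the control mean, read from the steps in the lowest FPKM values, ran from 87.0% to 149.9% over the 12 samples, and absolute depth is unknown. In bulk RNA, fewer cells that express a gene and less RNA per cell cannot be told apart.

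BANCR was barely expressed without IFNγ and abundant with it. Control samples held 1.11, 0.945 and 1.35 FPKM. SB-3CT samples held 0.226, 0 and 0.348 FPKM, the second being listed at 0. IFNγ samples held 29.7, 46.1 and 35.7 FPKM, and samples given SB-3CT with IFNγ held 39.5, 42.2 and 45.6 FPKM. All 6 samples with IFNγ were far above all 6 samples without it, the 3 SB-3CT samples were all below the 3 controls, and the 2 groups with IFNγ overlapped.

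DANCR was lower with IFNγ, the opposite direction to BANCR, and was abundant throughout. Its control samples held 158.6, 169.6 and 163.5 FPKM, and its SB-3CT samples held 140.2, 152.5 and 142.5 FPKM. With IFNγ it was at 54.7, 61.9 and 57.5 FPKM, and with SB-3CT and IFNγ at 72.4, 71.1 and 71.5 FPKM. No groups overlapped: DANCR was lowest with IFNγ alone, then with both agents, then with SB-3CT alone, and highest in the control. The share of all genes whose groups separate was not computed, so for both RNAs the separation of groups is a description only.

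**Figure D1:**
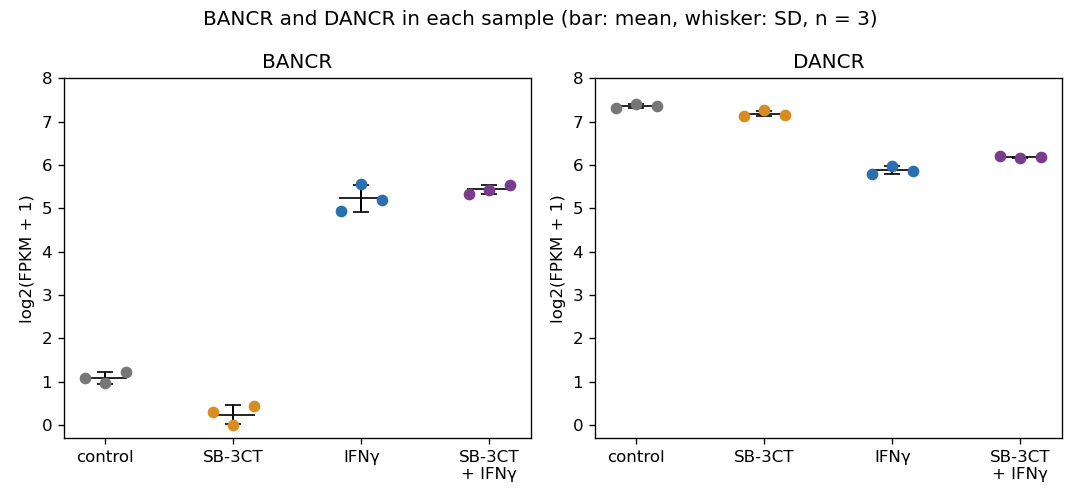
Levels of BANCR (left) and DANCR (right) as log2(FPKM + 1) in each of the 12 samples (points), with the group mean (bar) and SD (whiskers, n = 3). BANCR sits near 1 or below without IFNγ and near 5 with it, while DANCR sits above 7 without IFNγ and near 6 with it.

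With IFNγ, BANCR averaged 37.2 ± 8.33 FPKM (SD, n = 3) against 1.14 ± 0.205 in the control, a 32.7-fold difference in mean FPKM. On the log2 scale the difference was 4.14 (SE 0.164), the 5th largest of 4918 genes upward. DANCR averaged 58.0 ± 3.67 FPKM against 163.9 ± 5.50, a change of −64.6% in mean FPKM. Its log2 difference was −1.48 (SE 0.0566), the 3rd largest downward. The choice of the genes used this comparison, so these differences carry no test. Across the table, 19.5% of genes were called in this comparison at an adjusted p-value under 0.05.

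In the presence of SB-3CT the IFNγ difference kept its direction for both RNAs. BANCR was 5.20 higher on the log2 scale (SE 0.123) with SB-3CT and IFNγ than with SB-3CT alone, the 3rd largest difference upward, and its mean FPKM was 222-fold higher over a base that includes the sample listed at 0. DANCR differed by −1.01 on the log2 scale (SE 0.0405), the 12th largest difference downward, and by −50.6% in mean FPKM. These differences too were used in the choice and carry no test, and 40.5% of all genes were called in this comparison. The 2 IFNγ comparisons share no samples, but each shares a group with each SB-3CT comparison below.

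With these opposite directions the 2 RNAs came close to the same level in cells given IFNγ. The mean FPKM of DANCR was 144 times that of BANCR in the control and 758 times with SB-3CT, but 1.56 times with IFNγ and 1.69 times with both agents. Ranked by mean FPKM among the 280 lncRNAs, DANCR was first in every group. BANCR was 58th in the control, 137th with SB-3CT and 3rd in both groups given IFNγ.

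SB-3CT alone lowered BANCR, the one call among the 2 RNAs in this comparison. Its mean was 0.191 ± 0.177 FPKM (SD, n = 3) against 1.14 ± 0.205 in the control, and all 3 SB-3CT samples were below all 3 controls. The log2 change was −0.85 (SE 0.119, 95% interval −1.13 to −0.57; limma adjusted p = 0.00969). It was the 10th largest downward change of 4918 genes and the lowest of the 279 lncRNAs without DANCR, whose other members ran from −0.67 to 0.44. Of all genes, 12.2% were called in this comparison, 264 higher and 338 lower. Without control replicate 1, 2 or 3 the log2 change was −0.86, −0.91 or −0.78 and the adjusted p-value was 0.0565, 0.0553 or 0.0599, while the number of all genes called went from 602 to 88, 73 or 88.

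The sample in which BANCR was listed at 0, SB-3CT replicate 2, had a relative depth of 92.5%, and the SB-3CT samples with BANCR detected had 130.1% and 116.6%. Of the 315 genes with a mean between 0.8 and 1.6 FPKM in the control, a level band around BANCR that was set after its values were seen, 3 were listed at 0 in that sample and 0 to 3 in each of the others. Within this band BANCR had the 2nd lowest SB-3CT change, behind FAM133DP at −0.88 on the log2 scale. The part of depth in the BANCR value was not tested.

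DANCR was also lower in every SB-3CT sample than in every control, but the difference did not pass the threshold. Its mean was 145.1 ± 6.52 FPKM against 163.9 ± 5.50, a change of −11.5%. The log2 change was −0.18 (SE 0.0483, 95% interval −0.29 to −0.06; limma adjusted p = 0.0577). It passed under other settings, with an adjusted p-value of 0.0308 over genes with a mean of at least 1 FPKM and 0.0185 after quantile normalization, and did not pass after scaling by the median ratio, at 0.178.

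When IFNγ was present, SB-3CT raised DANCR. Its mean was 71.7 ± 0.679 FPKM (SD, n = 3) with both agents against 58.0 ± 3.67 with IFNγ alone, 23.5% higher, and the groups did not overlap. The log2 change was 0.30 (SE 0.0565, 95% interval 0.17 to 0.43; limma adjusted p = 0.00603). In this comparison 37.9% of all genes were called, 315 higher and 1547 lower, and the median change of the 3177 genes with a mean of at least 1 FPKM was −0.20 on the log2 scale. DANCR was thus among the smaller group of genes called higher, and after scaling by the median ratio, which moves that median to near 0, its log2 change was 0.54 (adjusted p = 0.00455). Leaving out each of the 6 samples in turn kept the call, with changes of 0.26 to 0.35. The summed melanoma markers were at 80.8 to 85.1 FPKM with both agents and at 108 to 118 FPKM with IFNγ alone, and their part in the DANCR change was not tested.

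BANCR was not distinguishable between the 2 groups given IFNγ. Its mean was 42.4 ± 3.09 FPKM with both agents against 37.2 ± 8.33 with IFNγ alone. The log2 change was 0.21 (SE 0.146, 95% interval −0.14 to 0.55; limma adjusted p = 0.32). IFNγ replicate 2 had the highest BANCR level of all 12 samples, and without it the log2 change was 0.37 with a limma adjusted p-value of 0.0392. Without IFNγ replicate 1, the lowest of its group, the log2 change was 0.06 with a limma adjusted p-value of 0.765. Of the 6 fits that each left out 1 sample, 1 passed.

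**Figure D2:**
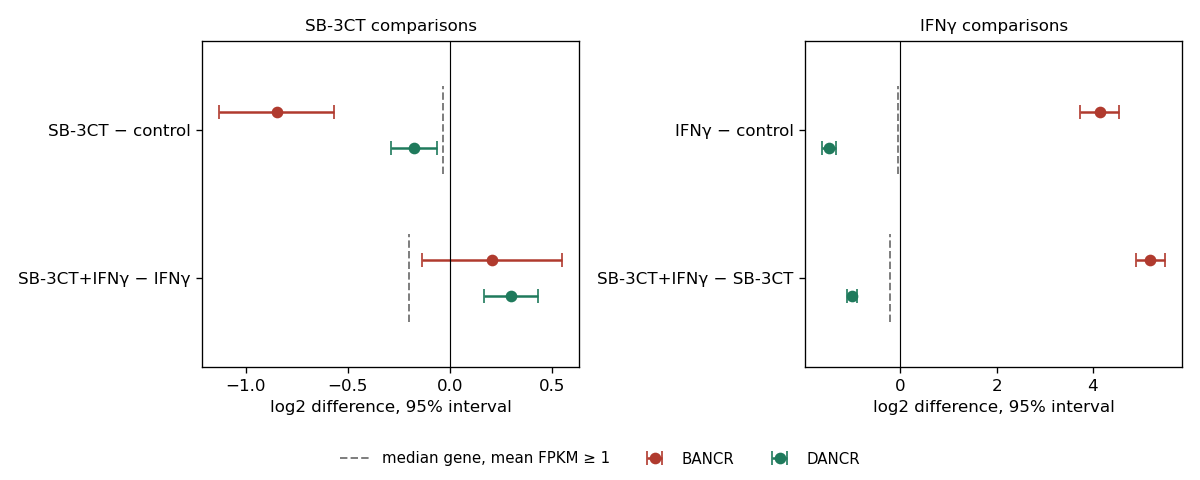
Differences in log2(FPKM + 1) of BANCR (red) and DANCR (green) for the 2 SB-3CT comparisons (left) and the 2 IFNγ comparisons (right), with 95% intervals from limma and the median gene of mean FPKM at least 1 as a dashed line. DANCR lies at −0.18 for SB-3CT alone (adjusted p-value 0.0577 in limma) and at 0.30 for SB-3CT added to IFNγ, and the differences on the right, which chose the genes, are shown as a description.

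The SB-3CT change of each RNA was set beside its own value in the other IFNγ state. For DANCR the change was −0.18 without and 0.30 with IFNγ, a difference of 0.48 on the log2 scale (SE 0.0723). For BANCR it was −0.85 without and 0.21 with IFNγ, a difference of 1.06 (SE 0.214). The same quantity is the difference between the 2 IFNγ changes that chose the genes, so it was not tested. Each SB-3CT comparison likewise shares a group of samples with each IFNγ comparison. All 4 groups therefore entered both the choice of the genes and the SB-3CT changes. The SB-3CT p-values are thus not independent of that choice.

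The other lncRNAs analysed are given beside the members. Of 278 others, 58 had a mean of at least 1 FPKM, against 3177 of all 4918 genes. In IFNγ against control 10 of the 278 were called higher and 13 lower. This share of 8.27% stands beside 19.5% of all genes, not at like expression level. The median log2 change of all genes was −0.02, and that of the 278 was −0.01. Their changes ran from −1.12 to 1.83, so BANCR lay above and DANCR below all of them, and both did so also under median ratio scaling, quantile normalization and removal of the length trend. With SB-3CT present, 12 were called higher and 30 lower, which is 15.1% beside 40.5% of all genes (386 higher and 1608 lower). The changes ran from −0.87 to 1.52, again inside the values of BANCR and DANCR under each of these scalings. The split was 13 higher and 14 lower after median ratio scaling, and 129 higher and 20 lower after removal of the length trend. No direction is therefore given for the group.

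The lncRNA next to BANCR upward was BISPR, an interferon-induced RNA transcribed beside BST2. It rose from 0.192 ± 0.122 to 3.28 ± 0.915 FPKM with IFNγ (log2 change 1.83, SE 0.175; limma adjusted p = 0.00124). CHKB-AS1, an antisense RNA, rose by 0.86 on the log2 scale, from 1.64 to 3.71 FPKM (limma adjusted p = 0.0289). The lncRNA next to DANCR downward was ARHGAP5-AS1, an antisense RNA at the RhoGAP gene ARHGAP5, which fell from 10.6 ± 1.07 to 4.31 ± 0.266 FPKM (log2 change −1.12, SE 0.0846; limma adjusted p = 0.000472). In SB-3CT with IFNγ against SB-3CT the largest changes were those of BISPR at 1.52, CASC10 at −0.87 and ARHGAP5-AS1 at −0.69 on the log2 scale, all called.

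**Figure D3:**
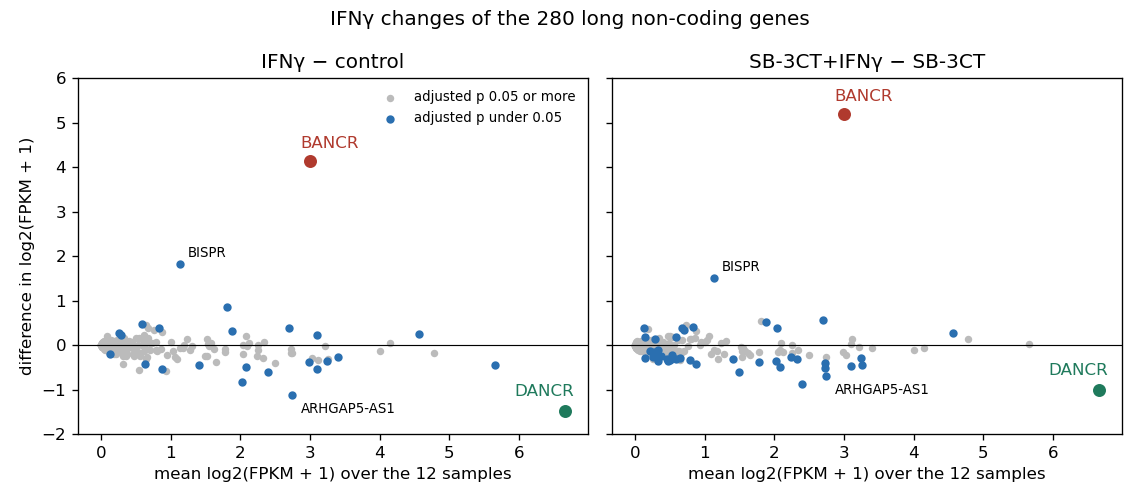
IFNγ differences in log2(FPKM + 1) of the 280 lncRNAs against their mean log2(FPKM + 1) over the 12 samples, for IFNγ against control (left) and SB-3CT with IFNγ against SB-3CT (right); blue points passed the adjusted p-value of 0.05 in limma and grey points did not. BANCR, at 4.14 and 5.20, lies above all the others and DANCR, at −1.48 and −1.01, lies below them.

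For SB-3CT against control, 3 other lncRNAs were called higher and 5 lower, which is 2.88% of the 278, against 12.2% of all genes. Only 58 of the 278 had a mean of at least 1 FPKM, so these shares were not compared at like expression level. ARHGAP5-AS1 fell from 10.6 ± 1.07 to 6.28 ± 0.103 FPKM (log2 change −0.67; limma adjusted p = 0.00596), DLEU2, an RNA of the deleted region of chromosome 13 in lymphocytic leukemia, fell by 0.48 on the log2 scale, and ATP6V1B1-AS1 rose by 0.43. ARHGAP5-AS1 was thus lower with either agent alone, whereas BANCR was lower with SB-3CT and higher with IFNγ. When SB-3CT was added to IFNγ, 12 were called higher and 16 lower as deposited, but 20 and 6 after median ratio scaling, 24 and 4 after quantile normalization and 108 and 6 after removal of the length trend, so no direction is given for the group. The calls as deposited are 10.1% of the 278 beside 37.9% of all genes. In that comparison C6orf48, another host gene of small nucleolar RNAs, rose from 21.9 ± 0.712 to 31.6 ± 1.31 FPKM (log2 change 0.51; limma adjusted p = 0.00207), ATP6V1B1-AS1 rose by 0.48 and EBLN3 fell by 0.53 on the log2 scale.

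DANCR hosts a small nucleolar RNA, and 111 other genes of the table hold an annotated one on their own strand. In IFNγ against control 7 of them were called higher and 17 lower, which is 21.6% beside 19.5% of all genes, with changes from −0.64 to 0.62, so DANCR at −1.48 was the lowest of these 112. In SB-3CT with IFNγ against SB-3CT, 6 were called higher and 47 lower, which is 47.7% beside 40.5% of all genes. There DANCR was again the lowest, since the others ran from −0.90 to 0.53. In SB-3CT against control, 4 were called higher and 13 lower, a share of 15.3% beside 12.2% of all genes. In SB-3CT with IFNγ against IFNγ, 7 were called higher and 53 lower, which is 54.1% beside 37.9% of all genes, and DANCR with its higher value was 8th from the top. These shares were not compared at like expression level, since 78 of the 111 and 3177 of all 4918 genes had a mean of at least 1 FPKM. A fit over those 3177 genes alone called 1045 in IFNγ against control and 901 in SB-3CT against control. It called 1858 in SB-3CT with IFNγ against IFNγ and 1970 in SB-3CT with IFNγ against SB-3CT. Among the 111, the lower calls outnumbered the higher ones in all 4 comparisons as deposited and under the 3 other scalings, although the SB-3CT with IFNγ against IFNγ split became 14 higher and 33 lower after median ratio scaling. As deposited, lower calls outnumbered higher ones in all 4 comparisons over all genes too. After median ratio scaling all genes split into 580 higher and 526 lower in IFNγ against control. In SB-3CT with IFNγ against IFNγ they split into 763 higher and 811 lower.

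Among these host genes the named changes with IFNγ were smaller than that of DANCR. C10orf90 fell from 4.34 to 2.43 FPKM (log2 change −0.64; limma adjusted p = 0.00385), CINP, a gene of the DNA damage checkpoint, fell from 62.4 to 43.1 FPKM (log2 change −0.53; adjusted p = 0.0151), and CPA4, a carboxypeptidase, rose from 18.1 to 28.5 FPKM (log2 change 0.62; adjusted p = 0.00286). CPA4 then fell from 28.5 to 14.6 FPKM when SB-3CT was added to IFNγ (log2 change −0.92; limma adjusted p = 0.00194), the reverse of DANCR in both comparisons.

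Many host genes of small nucleolar RNAs carry a 5′ terminal oligopyrimidine tract, as do translation factor genes, so 11 such translation genes were set beside DANCR. In IFNγ against control 4 of 11 were called lower and 0 higher, which is 36.4% beside 19.5% of all genes. All 11 had a mean of at least 1 FPKM, and a fit over the 3177 genes at that level called 1045 of them. That share is closer to the 36.4% of the list than 19.5% is. EIF3E, a subunit of initiation factor eIF3, fell from 286 to 207 FPKM (log2 change −0.46; limma adjusted p = 0.00455). EEF1B2, a subunit of elongation factor 1, fell from 556 to 433 FPKM (log2 change −0.36; limma adjusted p = 0.00686). After quantile normalization the EEF1B2 change was −0.20 and no longer called, at an adjusted p-value of 0.0857. After median ratio scaling 2 were called lower and 0 higher, and after quantile normalization 3 lower and 1 higher. The median change of the list was −0.14, against −1.48 for DANCR. EEF1B2 was also higher when SB-3CT was added to IFNγ: its log2 change was 0.47 (433 to 598 FPKM; limma adjusted p = 0.00234), but after quantile normalization that change was 0.12 with an adjusted p-value of 0.243, and after median ratio scaling 0.71 with 0.00252. In SB-3CT against control 1 of the 11 was called higher (EEF2) and 4 lower (BTF3, EEF1A1, EIF3E and EIF3L), and after median ratio scaling 1 was called higher and 1 lower, with BTF3, EEF1A1 and EIF3L no longer called. As deposited these calls are 45.5% of the list, beside 12.2% of all genes. The fit over the 3177 genes with a mean of at least 1 FPKM called 901 of them, a larger share than 12.2%.

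BANCR takes its name from BRAF, so 12 genes of the BRAF-ERK pathway and its output were counted. BRAF itself was at 2.17 FPKM in the control and 2.20 FPKM with IFNγ, with a log2 change of 0.01 (limma adjusted p = 0.971), beside the 4.14 of BANCR. Of the 12 genes, 1 was called higher with IFNγ (CCND1, encoding cyclin D1, 102 to 130 FPKM) and 2 lower (DUSP4, an ERK phosphatase, and ETV4, an ETS factor), which is 25% of the list beside 19.5% of all genes. All 12 had a mean of at least 1 FPKM, and a fit over the 3177 genes at that level called 1045 of them. That is a larger share than the 25% of the list, so the list is not above the share at like expression level. CCND1 was no longer called after removal of the length trend, at an adjusted p-value of 0.0509, nor was ETV4 after median ratio scaling, at 0.0769, or quantile normalization, at 0.0806. In SB-3CT with IFNγ against SB-3CT, 0 of the 12 were called higher and 10 lower, which is 83.3% beside 40.5% of all genes. The list median was −0.37, against −0.11 for all genes. After median ratio scaling 0 were called higher and 5 lower, and after quantile normalization 0 higher and 7 lower.

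With SB-3CT alone, where BANCR fell, the BRAF-ERK genes were split. EGR1, an immediate early factor, rose from 5.29 to 8.29 FPKM (log2 change 0.56; limma adjusted p = 0.0215), and DUSP5 and EPHA2 rose by 0.33 and 0.25 on the log2 scale. DUSP6, a phosphatase that responds to ERK activity, fell from 40.8 to 34.6 FPKM (log2 change −0.23; limma adjusted p = 0.0158), and ETV1 fell by 0.36 on the log2 scale. With the length trend removed, DUSP5 (adjusted p-value 0.0725) and ETV1 (0.0528) were no longer called. The 5 calls are 41.7% of the list, beside 12.2% of all genes. All 12 genes had a mean of at least 1 FPKM, so these shares were not compared at like expression level. A fit over the 3177 genes at that level called 901 with SB-3CT alone and 1858 in SB-3CT with IFNγ against IFNγ. In SB-3CT with IFNγ against IFNγ, where BANCR did not pass, 0 were called higher and 8 lower as deposited, beside 37.9% of all genes called and a median gene at −0.20, and 2 higher and 4 lower after median ratio scaling.

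Of the genes described as bound by or downstream of these RNAs, EZH2 and CTNNB1 (β-catenin) were measured. EZH2 was at 13.8 FPKM in the control and 16.3 FPKM with IFNγ, and its log2 change of 0.22 did not pass (limma adjusted p = 0.0658), although it did after median ratio scaling, at 0.00613. CTNNB1 was at 85.1 and 89.3 FPKM, with a log2 change of 0.06 (limma adjusted p = 0.681). When SB-3CT was added to IFNγ, both fell: EZH2 from 16.3 to 10.3 FPKM (log2 change −0.61; limma adjusted p = 0.00209) and CTNNB1 from 89.3 to 54.4 FPKM (log2 change −0.70; limma adjusted p = 0.00236). Both calls held under the 3 other scalings, with EZH2 at −0.39 and CTNNB1 at −0.46 after median ratio scaling. Lower calls were common there: 37.9% of all genes were called, 1547 lower and 315 higher. The middle gene among those averaging 1 FPKM or more stood at −0.20. EZH2 binding and β-catenin activity were not measured, and a link of these 2 falls to the DANCR rise was not tested. CXCL11, a chemokine described downstream of BANCR, was not analysed here.

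Genes near the 2 loci were low. Within 500 kb of BANCR the table held FAM189A2, at 0.599 FPKM in the control and 0.299 FPKM with IFNγ (log2 change −0.31; limma adjusted p = 0.079), and APBA1, a synaptic adaptor, at 0.0518 to 0.0773 FPKM in the 4 groups. FAM189A2 fell with SB-3CT, from 0.599 to 0.37 FPKM (log2 change −0.22; limma adjusted p = 0.0292), a call that was lost after removal of the length trend, at 0.0779. Within 500 kb of DANCR the table held only ERVMER34-1, an endogenous retroviral envelope gene that overlaps its end on the opposite strand, at 0.0217 to 0.0453 FPKM, against the 58.0 to 163.9 FPKM of DANCR.

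To describe the shape of each profile, the 4 group means on the log2 scale were centred per gene and compared by root mean square (RMS) difference over the 4 groups, among genes with a mean of at least 1 FPKM. The 5 profiles closest to BANCR were those of CTSS, the lysosomal protease cathepsin S (RMS 0.28), C1S, a complement protease (0.39), BATF2, a basic leucine zipper factor (0.52), CD7, a lymphocyte surface protein (0.65), and CD274, which encodes PD-L1 (0.69). CTSS had mean levels of 0.871, 0.777, 42.6 and 48.0 FPKM in the control, SB-3CT, IFNγ and combined groups, close to the IFNγ levels of BANCR. BANCR differed from all 5 in its lower point with SB-3CT, at −2.76 on the centred log2 scale against −1.91 in the control, where CTSS had −2.37 and −2.30. CD274 differed in the other direction with both agents: it fell from 21.7 to 14.7 FPKM when SB-3CT was added to IFNγ (log2 change −0.53; limma adjusted p = 0.00542; −0.30 after median ratio scaling, adjusted p = 0.0301), where BANCR was at 37.2 and 42.4 FPKM.

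The profile closest to DANCR was that of CHI3L2, a chitinase-like secreted protein, with an RMS difference of 0.06 and mean levels of 6.28, 5.72, 1.49 and 2.07 FPKM in the control, SB-3CT, IFNγ and combined groups. It was followed by ARG2, the mitochondrial arginase (0.10), AP1M2, a subunit of a clathrin adaptor (0.18), ARPP21, a cAMP-regulated phosphoprotein (0.18), and ADGRG1, an adhesion G protein-coupled receptor (0.18). ARG2 went from 11.5 FPKM in the control to 4.14 FPKM with IFNγ and 4.51 FPKM with both agents. At 164 FPKM in the control, DANCR was far more abundant than any of them, the highest of which was ADGRG1 at 28.7 FPKM. These likenesses are over 4 group means and carry no test.

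**Figure D4:**
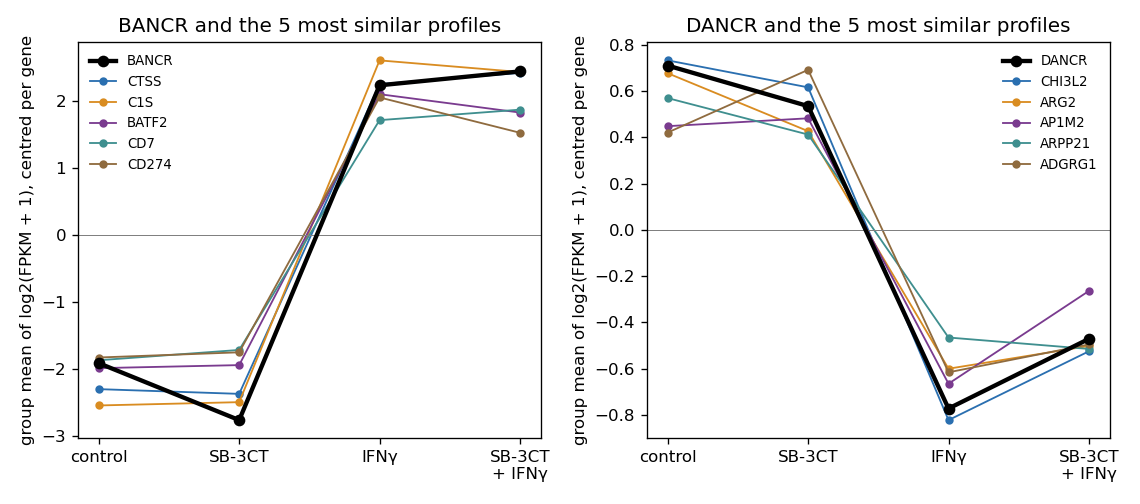
Group means of log2(FPKM + 1), centred per gene, for BANCR (left, black) and DANCR (right, black) and the 5 genes with the most similar profile of each (coloured). The BANCR set is low without and high with IFNγ, with BANCR lowest of its set with SB-3CT at −2.76, and the DANCR set is high without and low with IFNγ.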

How the data were processed

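Reads (150-base pairs, Illumina) were aligned by the authors to hg19 with HISAT2 2.0.5, and FPKM were calculated with StringTie 1.3.3, per the submitters' processing notes and the study's methods. The annotation is not given in the sources used here. The values the authors deposited are log2(FPKM + 1), reaching 12.16 at most, and entered the tests without a further logarithm, although the planned tests assumed FPKM as the deposited unit. 2 to the power of a value minus 1 gave FPKM. The table held 4918 genes, and 0 columns of sample values were left unused. Relative depth came from steps in FPKM below 0.15, and all 66 pairs of samples lay within 0.05 log2 of a single set of depths. The absolute depth is not known, and counting error could not be computed.

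Each comparison was fitted in R 4.3.3 with limma 3.58.1 (lmFit and eBayes with trend on its own 3 + 3 samples, no block) over all 4918 genes with Benjamini-Hochberg adjustment, and genes were called at an adjusted p-value under 0.05. Between 3 and 3 samples an exact permutation test cannot go below p = 0.1. The members and lists were chosen with earlier results of these data known. The genes named are BANCR, DANCR, the hand-written lists, up to 3 genes per class by size of change at a mean of at least 1 FPKM, genes within 500 kb, and the 5 most similar profiles; FAM133DP was named after its values were seen. GENCODE release 44 on GRCh37 gave positions, types and lengths (4458 symbols matched directly, 417 through an older symbol, 99.1% with a length). Some sequences and a motif are not reported here. Promoter and microRNA sequences are from RefSeq, other sequences from GRCh37, and matches were sought with BLAST+ 2.17.0. Alternatives were a pseudocount of 0.1, a mean of at least 1 FPKM, median ratio scaling, quantile normalization, removal of the trend with transcript length, a joint fit of the 4 groups, a block for the replicate number, eBayes without trend or with robust estimation, and each sample left out.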

Additional observations from a re-analysis of the deposited data

Results flagged for a closer look

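The SB-3CT change of DANCR differed between the states without and with IFNγ by 0.48 on the log2 scale (SE 0.0723). Every SB-3CT sample (140.2 to 152.5 FPKM) was below every control (158.6 to 169.6 FPKM), while every sample with both agents (71.1 to 72.4 FPKM) was above every sample with IFNγ alone (54.7 to 61.9 FPKM). The difference was not tested, since it equals the difference of the IFNγ changes by which DANCR was chosen. Leaving out each of the 12 samples in turn gave 0.43 to 0.52. The change in SB-3CT against control did not pass (limma adjusted p = 0.0577), and that in SB-3CT with IFNγ against IFNγ did (limma adjusted p = 0.00603). The share of all genes whose groups separate in this way was not computed, so the separation alone does not set DANCR apart.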

How the results depend on the processing

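The changes of BANCR and DANCR kept their sign under every alternative run. DANCR in SB-3CT against control passed over genes with a mean of at least 1 FPKM (log2 change −0.18, limma adjusted p = 0.0308), with the length trend removed (−0.20, 0.0478), after quantile normalization (−0.21, 0.0185) and with all 4 groups in the limma fit (−0.18, 0.0413); its adjusted p-value ranged from 0.0185 to 0.178 over these and the other settings. With a pseudocount of 0.1, BANCR was at −2.32 in SB-3CT against control (limma adjusted p = 0.0253), 4.90 in IFNγ against control and 7.44 in SB-3CT with IFNγ against SB-3CT, and the difference of its SB-3CT changes was 2.54. Median ratio scaling gave 5.39 for BANCR and −0.76 for DANCR in SB-3CT with IFNγ against SB-3CT, 0.68 for the difference of the DANCR changes, and 1204 called genes in place of 1994. Quantile normalization gave −0.95 for DANCR in SB-3CT with IFNγ against SB-3CT. The cause of these shifts was not tested.

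In SB-3CT with IFNγ against IFNγ, 16.9% of called genes were higher as deposited, 48.5% after median ratio scaling, 43.2% after quantile normalization and 1246 of 2490 genes (50%) with the length trend removed, and in SB-3CT with IFNγ against SB-3CT the shares were 19.4%, 54.6%, 38.5% and 50.6%. Leaving out 1 sample at a time, the log2 change of BANCR ranged from −0.94 to −0.73 in SB-3CT against control and from 0.061 to 0.37 in SB-3CT with IFNγ against IFNγ. The counts of called genes ranged from 73 to 912 in SB-3CT against control, where 912 came without SB-3CT replicate 1, from 1230 to 1977 in SB-3CT with IFNγ against IFNγ, where 1230 came without IFNγ replicate 3, and from 562 to 982 in IFNγ against control.

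Whether replicate numbers pair the samples is not known, and the deviations of same-numbered samples correlated between −0.395 and 0.172, which cannot settle it. A replicate block changed the SE in SB-3CT against control from 0.119 to 0.059 for BANCR and from 0.0483 to 0.0366 for DANCR. In SB-3CT with IFNγ against IFNγ it changed from 0.146 to 0.112 for BANCR and from 0.0565 to 0.064 for DANCR. With a replicate block in the fit, 259 genes were called in SB-3CT against control in place of 602, and the limma adjusted p-values were 0.0114 for BANCR and 0.058 for DANCR in that comparison and 0.0193 for DANCR and 0.211 for BANCR in SB-3CT with IFNγ against IFNγ. Absolute depth is unknown, which limits what can be said of BANCR below 1 FPKM.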
